A study of Mus musculus with 20 samples.

Results

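Semaphorins, their plexin and neuropilin receptors, and the collapsin response mediator proteins (CRMPs) that act inside the cell were examined in the striatum of mice bred for high home cage activity. Genes were included when their symbol was Sema followed by a number, began with Plxn, or was Nrp1, Nrp2, Crmp1 or Dpysl2 to Dpysl5. This gave 39 of the 39179 listed genes, made up of 20 semaphorins, 9 plexins, 2 neuropilins, 5 CRMPs and 3 antisense transcripts of the Plxna4 locus. All 36 protein-coding genes were tested, since each exceeded 1 CPM (its reads per mouse scaled to a common library size) in 3 or more mice. The antisense transcripts Plxna4os1 (3 to 15 reads per mouse), Plxna4os2 (0 to 1 read) and Plxna4os3 (0 to 1 read) did not pass and were not tested.

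The 20 mice were adult males of generation 17, about 6.5 months old, from a High-Active line selected for home cage activity and a Control line, both founded from an intercross of 8 inbred strains. Each line contributed 5 mice given an intraperitoneal injection of saline and 5 given 0.25 mg/kg d-amphetamine, and the whole bilateral striatum was taken 2 hours later. There was 1 line of each kind, so an effect of selection and a chance difference between the lines cannot be told apart. Sampling covered 5 High-Active families, in which 9 of 10 mice had a full sibling of the line among the samples, and 8 Control families, in which 4 of 10 had one.

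Semaphorins are secreted or membrane-bound cues that steer growing axons and dendrites and shape synapses. Plexins are their main receptors and act on small GTPases, while neuropilins hold most class 3 semaphorins and pair with A-type plexins to pass the signal on. CRMPs were found as carriers of the growth cone collapse that Sema3a causes; they bind tubulin and actin and are most abundant in the developing brain, although some stay high in the adult. In the striatum these genes are known for guiding afferents from cortex and midbrain and for keeping synapses of the direct and indirect pathways apart.

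Gene counts totalled 32388971 to 53710713 reads in each library. The striatal label was borne out by its markers: the 9 medium spiny neuron markers summed to 4297 to 7097 CPM per mouse and none was at 0. Cortical excitatory neuron markers were also present, at 166 to 1008 CPM summed over 10 genes. High-Active amphetamine mouse 192 stood apart from its line. It had 13 reads of the pseudogene Gm6180, within the 4 to 15 reads of the Control mice, while the other 9 High-Active mice had 390 to 801. On the first principal component it lay at -3.58, within the -29.2 to -1.95 of the Control mice. The other High-Active mice lay at 3.42 to 37.5. Whether this component, with 20.5% of the variance, followed the cortical markers was not tested. Beside 5.32 in mouse 872, the High-Active mouse at 3.42, mouse 192 had a mean log2 CPM of 5.04 over these markers. Its labelled home cage activity from video tracking before the injection, a distance whose unit the labels do not give, was 1.36 and in contrast lay within the 0.583 to 3.18 of the other High-Active mice and above the 0.20 to 0.474 of the Control mice. It was kept under its label. Without it, 9 of the genes described here, rather than 10, passed the test for the line effect, against 15.7% of all genes. The genes lost were Sema4c (adjusted p = 0.108) and Sema5b (adjusted p = 0.121), and Sema4f passed (adjusted p = 0.0808, edgeR).

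Levels were compared between genes as CPM per kb of exon. Dpysl2, the CRMP first tied to Sema3a signaling, was the most abundant at 47.5 CPM per kb ± 11.6 (SD, n = 20 mice). The glycosylphosphatidylinositol-anchored Sema7a (26.6 ± 6.07) and the transmembrane Sema6b (25.7) followed, and Crmp1 stood at 20.6. Sema6b and Sema7a thus carried the highest levels among the ligands, while the secreted class 3 genes were low, from 0.739 for Sema3b to 5.81 for Sema3e. Sema3a, the best known repellent of the family, was at 1.68 and Sema3d at 0.897. The plexins lay between 4.74 (Plxna3) and 14.2 (Plxnb1), above the neuropilins Nrp1 (3.00) and Nrp2 (3.28). Dpysl5, the CRMP that departs most from the others in the family, had the lowest level among the CRMPs at 6.30. Of the 35 neighboring pairs in this order, 34 had overlapping ranges over the 20 mice, and the exception was the step from Crmp1 to Plxnb1.

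**Figure D1:**
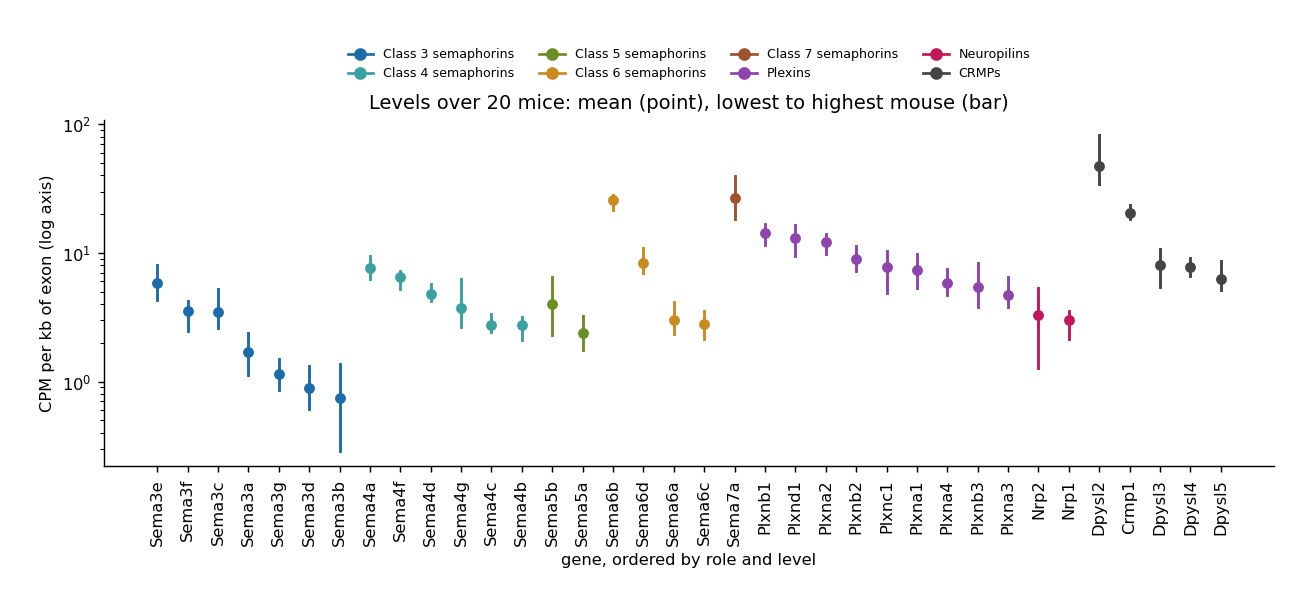
Level of each of the 36 genes as CPM per kb of exon on a log axis, grouped by role, with the mean (point) and the lowest to highest of 20 mice (bar). Dpysl2, Sema7a, Sema6b and Crmp1 stand highest, and the class 3 semaphorins Sema3b, Sema3d and Sema3g stand lowest.

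The line effect, High-Active minus Control averaged over both treatments, asks which genes differ after selection. The lines, of 10 mice each, differed in 10 of the 36 genes at an adjusted p (FDR) under 0.1, of which 9 were higher and 1 was lower in High-Active mice. Over all 14792 genes tested, 2149 were called (14.5%), 1129 of them higher (7.63%) and 1020 lower (6.9%). The 9 higher genes were Dpysl5, Sema3a, Dpysl3, Sema3d, Plxnb2, Sema4c, Sema3c, Sema4g and Sema5b, and the lower gene was Sema6b. The median log2 fold change of the 36 genes was 0.08, with 26 above 0 and 10 below, and the median of all genes tested was -0.00093. An unadjusted p under 0.05 was reached by 18 of the 36 genes, 14 higher and 4 lower, against 26.1% of all genes. DESeq2 called 12 of the 36 genes, 9 higher and 3 lower (19% of all genes), and the likelihood-ratio test with robust dispersions called 12, 10 higher and 2 lower (15.3%). By role, 7 of 20 semaphorins, 1 of 9 plexins, 0 of 2 neuropilins and 2 of 5 CRMPs were called. Dpysl5, Sema3a, Dpysl3 and Sema3d were called with each of the 20 mice left out in turn, and the other 6 genes in 5 (Sema4c) to 15 (Sema6b) of these 20 fits. The count fell to 4 without Control saline mouse 883 (9.48% of all genes called) or High-Active saline mouse 871 (9.53%). It was 5 without mouse 411 (10.8% of all genes), 415 (9.36%) or 487 (10.9%). It was 6 without mouse 369 (13.1% of all genes), 454 (11.6%), 469 (14.4%) or 499 (12.2%). In bulk striatum, fewer cells of a type and less RNA per cell cannot be told apart.

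**Figure D2:**
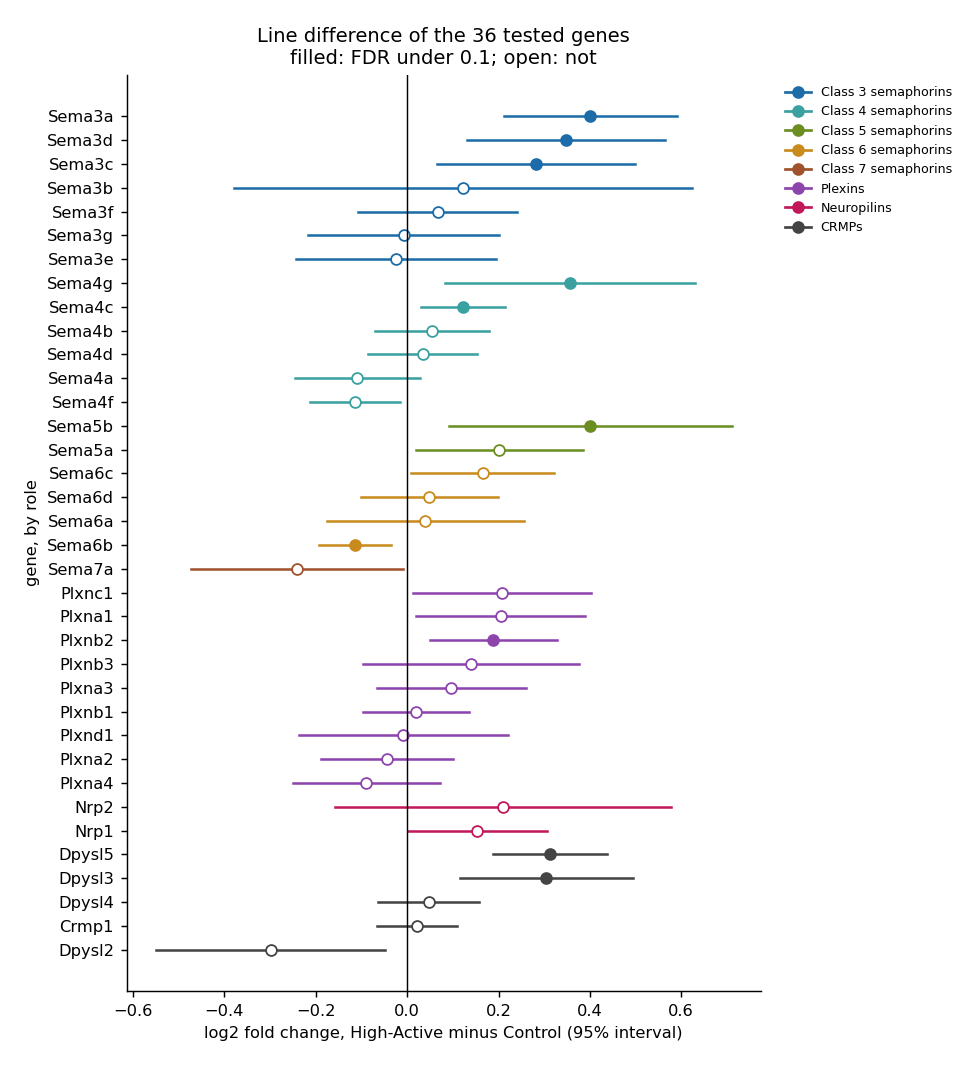
Log2 fold change between the lines with its 95% interval for the 36 genes, grouped by role; filled points passed FDR 0.1. The 3 called class 3 genes, Sema3a, Sema3d and Sema3c, lie at 0.28 to 0.40, while Sema6b is the called gene below 0.

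Among the secreted class 3 semaphorins, 3 of 7 were called and all 3 were higher in High-Active mice. Sema3a had 15.5, 15.7, 18.3, 19.7 and 21.6 CPM in the Control saline mice and 22.4, 24.4, 24.6, 25.05 and 33.0 CPM in the High-Active saline mice. These groups did not overlap. After amphetamine, Control mice had 16.8, 21.1, 22.9, 23.1 and 26.6 CPM and High-Active mice had 23.7, 24.2, 26.9, 29.4 and 31.3 CPM, which overlapped. The log2 fold change between the lines was 0.40 ± 0.09 (SE), a rise of 32.1%, with an adjusted p of 0.0115, and all 10 High-Active mice lay above the Control median.

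Sema3d, a secreted cue known from axon guidance and from vessel and neural crest patterning, was sparse, with 172 to 461 reads per mouse. Its lowest, median and highest CPM were 5.26, 6.74 and 8.26 in the Control line and 7.01, 8.22 and 11.4 in the High-Active line. The lines overlapped, although 5 of 10 High-Active mice exceeded every Control mouse and all 10 exceeded the Control median (log2 fold change 0.35 ± 0.10, adjusted p = 0.0455). Sema3c, which can attract cortical axons, had 18.5, 22.3 and 27.7 CPM in the Control line and 20.0, 27.4 and 37.4 CPM in the High-Active line. The difference was 0.28 ± 0.10 on the log2 scale (adjusted p = 0.0918), with 5 of 10 High-Active mice above all Control mice and mice 886 and 499 below the Control median. Sema3b, Sema3e, Sema3f and Sema3g were not called, and their log2 fold changes ran from -0.02 (Sema3e) to 0.12 (Sema3b).

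Sema3d, Sema3a, Sema3e and Sema3c lie in this order on chromosome 5 of GRCm38, with Sema3c more than 1000 kb beyond Sema3e. Sema3d lies at chr5:12383385-12588948, Sema3a at chr5:13125414-13602565, Sema3e at chr5:14025276-14256689 and Sema3c at chr5:17574281-17730268, all on the plus strand. The 3 called genes thus flank Sema3e, which ligates plexin D1 without a neuropilin and had nearly the same level in both lines (Control, 54.5 CPM ± 9.39; High-Active, 53.3 CPM ± 10.4; SD over 10 mice each). Its log2 fold change of -0.02 had a 95% interval from -0.24 to 0.19. Within 500 kb, the tested neighbor of Sema3a was Sema3e itself and that of Sema3c was Cd36, and neither was called. Within 1000 kb, the called neighbor of Sema3a was Sema3d (1 of 3 tested), that of Sema3d was Sema3a (1 of 1), and 1 of 3 tested genes near Sema3c was called, lower in High-Active mice.

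Class 4 semaphorins are transmembrane ligands, several of which bind B-type plexins. Sema4g and Sema4c were called, and both were higher in High-Active mice. Sema4g had 23.1, 27.8 and 44.7 CPM (lowest, median, highest) in Control mice and 26.7, 34.8 and 54.2 CPM in High-Active mice, with a log2 fold change of 0.36 ± 0.13 (adjusted p = 0.0924). Its ranges overlapped widely, since Control mouse 477 at 44.7 CPM exceeded 9 of the 10 High-Active mice. Sema4c, a ligand of plexin B2, differed by less, 0.12 ± 0.04 on the log2 scale (adjusted p = 0.0875). It had 11.2, 12.1 and 13.7 CPM in Control mice and 12.3, 13.2 and 15.5 CPM in High-Active mice, and all 10 High-Active mice were above the Control median. Sema4f pointed the other way at -0.11 ± 0.05 but was not called (adjusted p = 0.129). Its CPM in saline mice was 27.5, 31.3, 32.7, 34.1 and 34.91 in the High-Active line and 34.91, 35.7, 36.6, 37.7 and 38.5 in the Control line. These saline groups did not overlap, although their nearest mice differed by less than the rounding. The line difference there was not called by edgeR (-0.19 ± 0.07, adjusted p = 0.141). DESeq2 called it in saline mice (7.51% of all genes), and it also called Sema4f for the line effect over both treatments (19%).

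Class 5 semaphorins carry thrombospondin repeats and can act as attractant or repellent depending on the matrix around them. Sema5b was higher in High-Active mice by 0.40 ± 0.15 on the log2 scale, a rise of 32.1% (adjusted p = 0.0931). It had 16.3, 24.3 and 36.8 CPM in Control mice and 24.6, 30.1 and 46.0 CPM in High-Active mice. The lowest High-Active mouse lay just above the Control median, and 3 High-Active mice were above all Control mice. Sema5a had a log2 fold change of 0.20 ± 0.09 and was not called (adjusted p = 0.147).

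Class 6 semaphorins are transmembrane proteins that signal through A-type plexins. Sema6b, the second most abundant ligand per kb, fell by 7.61% in High-Active mice (log2 fold change -0.11 ± 0.04, adjusted p = 0.0649). Control mice had 95.7, 107 and 112 CPM and High-Active mice had 85.1, 98.7 and 107 CPM, with 4 High-Active mice below every Control mouse and 9 below the Control median. Sema6c was not called at 0.17 ± 0.07 (adjusted p = 0.165). In amphetamine mice it was higher in the High-Active line by 0.26 in log2 CPM, again without being called. There its unadjusted exact permutation p was 0.00794 (5 against 5 mice). Sema6a and Sema6d stayed within 0.05 of 0. The single class 7 gene Sema7a acts through integrins and plexin C1. It had a log2 fold change of -0.24 ± 0.11 between the lines (adjusted p = 0.17). Its line difference was -0.44 in saline mice and -0.04 in amphetamine mice, neither called by edgeR. In saline mice DESeq2 (7.51% of all genes) and the likelihood-ratio test (7.38%) called it lower.

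Among the receptors, Plxnb2 was the called gene, with a log2 fold change of 0.19 ± 0.07 (adjusted p = 0.0808). Its CPM was 60.5, 60.6, 68.1, 68.6 and 75.7 in Control saline mice, 55.8, 59.0, 63.5, 66.0 and 68.6 in Control amphetamine mice, 70.2, 71.3, 82.3, 86.4 and 87.3 in High-Active saline mice, and 60.1, 60.6, 63.8, 74.7 and 81.9 in High-Active amphetamine mice. The saline groups overlapped through 1 Control mouse, and the amphetamine groups overlapped in 3 of the 5 High-Active mice. Plxna1 (0.20 ± 0.09, adjusted p = 0.146), the partner of neuropilins in Sema3a signaling, and Plxnc1 (0.21 ± 0.09, adjusted p = 0.161) had an unadjusted p under 0.05 without being called. Nrp1, which holds Sema3a, had a log2 fold change of 0.15 ± 0.07 (adjusted p = 0.182). Exons of Plxna1 share 970 bases with an opposite-strand gene, Gm26811 (median 0 reads), and those of Sema4c share 334 bases with D430040D24Rik (median 2 reads); whether counting used strand is not given in the sources used here. The other plexins and Nrp2 ran from -0.09 (Plxna4) to 0.21 (Nrp2), and the interval of Nrp2 reached from -0.16 to 0.58.

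CRMPs showed the best supported difference of the 36 genes. Dpysl5 (CRMP5), which restrains neurite outgrowth, had 39.2, 40.5, 41.8, 44.5 and 49.0 CPM in Control saline mice and 45.02, 47.5, 50.6, 51.6 and 55.0 CPM in High-Active saline mice. Its values were 37.9, 38.4, 39.4, 41.1 and 42.6 CPM in Control amphetamine mice and 45.7, 46.4, 52.5, 56.8 and 63.7 CPM in High-Active amphetamine mice. The amphetamine groups did not overlap, and the saline groups overlapped through Control mouse 477. The log2 fold change was 0.31 ± 0.06, a rise of 24.2% (adjusted p = 0.00434). Family means ran from 38.4 to 49.0 CPM over the 8 Control families and from 45.7 to 55.6 CPM over the 5 High-Active families.

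Dpysl3 (CRMP4), which bundles actin in growth cones, had 36.1, 48.6 and 57.5 CPM in Control mice and 49.7, 57.8 and 71.2 CPM in High-Active mice. It was higher by 0.30 ± 0.09 on the log2 scale (adjusted p = 0.0448), with 5 High-Active mice above all Control mice. Dpysl2 had the opposite sign, -0.30 ± 0.12, and was not called (adjusted p = 0.12), although DESeq2 (adjusted p = 0.0735) and the likelihood-ratio test (adjusted p = 0.0741) called it lower. Its spread was wide in Control mice, from 179 to 371 CPM, against 155 to 225 CPM in High-Active mice. Crmp1 and Dpysl4 had log2 fold changes of 0.02 and 0.05, with intervals from -0.07 to 0.11 and from -0.06 to 0.16.

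**Figure D3:**
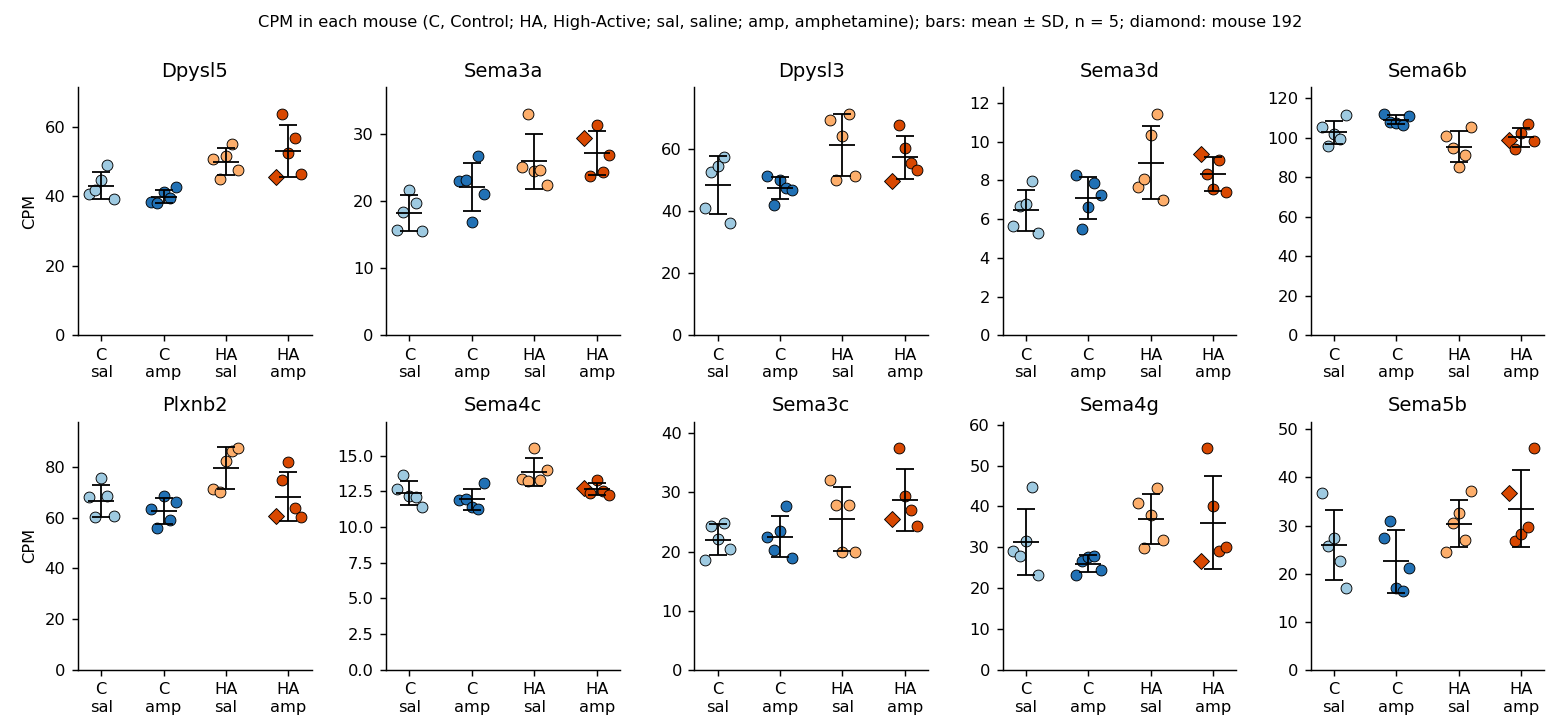
CPM of the 10 called genes in each mouse of the 4 groups (circles; diamond, mouse 192), with mean ± SD over 5 mice; each axis starts at 0. Dpysl5 separates the amphetamine groups and Sema3a the saline groups, while the other genes overlap between lines.

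In log2 CPM, two-sided permutation tests of 10 against 10 mice gave p from 0.00011 (Dpysl5) to 0.0283 (Plxnb2) for the 10 called genes. These genes were chosen by their line difference in the same mice, so the unadjusted p values add no independent support. The lowest permutation p of a gene not called was 0.0195 (Sema4f). Within single treatments fewer genes were called. In saline mice Sema3a was the called gene (log2 fold change 0.51 ± 0.13, adjusted p = 0.0507), against 3.74% of all genes, and in amphetamine mice Dpysl5 was the called gene (0.41 ± 0.08, adjusted p = 0.0297), against 1.3%. The line difference of Sema3a was 0.29 ± 0.13 in amphetamine mice, and that of Dpysl5 was 0.22 ± 0.08 in saline mice. Neither difference between treatments passed the interaction test (unadjusted p = 0.244 for Sema3a and 0.117 for Dpysl5), so a larger line difference under either treatment was not shown.

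The 250 bases before the RefSeq start of Dpysl5, Sema3a and Sema3d are shown because these genes stayed called with each of the 20 mice left out in turn, lie on the same chromosome, and differ in base composition. Capitals mark the GC box, GGGCGG or its complement CCGCCC, which was searched on both strands. Positions are those of GRCm38.p6 on the plus strand.
Dpysl5, chr5:30711314-30711563: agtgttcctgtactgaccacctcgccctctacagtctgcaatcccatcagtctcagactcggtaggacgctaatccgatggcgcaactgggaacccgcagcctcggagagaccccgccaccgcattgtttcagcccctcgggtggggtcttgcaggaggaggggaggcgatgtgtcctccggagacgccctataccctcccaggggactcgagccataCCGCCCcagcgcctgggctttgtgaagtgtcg
Sema3a, chr5:13396534-13396783: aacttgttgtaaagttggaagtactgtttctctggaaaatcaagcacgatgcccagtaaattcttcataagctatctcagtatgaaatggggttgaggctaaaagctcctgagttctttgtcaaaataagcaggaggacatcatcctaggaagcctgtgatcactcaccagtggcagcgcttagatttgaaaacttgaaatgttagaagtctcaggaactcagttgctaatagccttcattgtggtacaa
Sema3d, chr5:12382916-12383165: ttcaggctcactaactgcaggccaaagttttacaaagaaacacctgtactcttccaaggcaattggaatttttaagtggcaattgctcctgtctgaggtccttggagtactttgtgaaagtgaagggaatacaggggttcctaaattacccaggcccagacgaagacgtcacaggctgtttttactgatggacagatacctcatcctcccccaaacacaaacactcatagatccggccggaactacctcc
The Dpysl5 stretch was 62.8% G and C and held 1 GC box, while those of Sema3a (40.8%) and Sema3d (46.8%) held none. The Sema3a start used here lies inside the longer gene model given above. Over 40 promoters matched to 28 of the genes, 75.0% held a GC box, against 32.7% of all 32851 promoters of this length. The median content of G and C was 63.8% in the former and 52.4% in the latter. The E-box CANNTG was in 52.5% against 66.2%, and TATAAA or its complement was in 0 of the 40 against 12.4% of all. Some of the 28 genes gave more than 1 promoter to the 40, and the 32851 were not filtered by expression. Whether these gaps are particular to the genes described here was not tested. These matches describe letters in the window and do not locate a bound factor.

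Dpysl5 lies at chr5:30711564-30799375, in a gene-dense stretch where several other genes also differed between the lines. Within 500 kb of it, 9 of 28 tested genes were called (32.1%), 3 higher and 6 lower in High-Active mice. Preb, a regulator of secretory traffic, fell by 0.25 on the log2 scale, and Slc30a3, the vesicular zinc transporter of cortical neurons, fell by 1.01. Over all 10 called genes, 18 of 126 tested genes within 500 kb were called (14.3%), a share near the 14.5% of all genes.

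Markers of other cell types moved with the line. The mean log2 CPM of the 10 cortical excitatory neuron markers was lower in High-Active mice by 0.69 (permutation test, p = 0.0444, 10 against 10 mice). Their summed level had a median of 694 CPM (range 318 to 877) in Control mice and 333 CPM (range 166 to 1008) in High-Active mice. Of the 10 markers, 4 were called lower (Slc30a3, Neurod2, Slc17a7 and Tbr1) and none was at 0. The mean log2 CPM of the 10 was 3.37 in High-Active and 4.37 in Control mice after saline, and 4.48 and 4.86 after amphetamine. In saline mice 3 of the 10 were called lower (3.74% of all genes), and in amphetamine mice 0 were called (1.3%). Whether these gaps in the mean differ was not tested. By the same permutation test, oligodendrocyte precursor markers were higher by 0.23 (permutation p = 0.0092; 2 of 4 called; 112 to 167 CPM in Control and 134 to 181 CPM in High-Active mice). Immature neuron markers were higher by 0.29 (permutation p = 0.0482; Sox4 and Cd24a called of 7; 70.0 to 114 CPM and 82.2 to 145 CPM). Their mean log2 CPM was 3.70 in High-Active and 3.17 in Control mice after saline, and 3.26 and 3.22 after amphetamine; whether these gaps differ was not tested. Microglia markers were lower by 0.09 (permutation p = 0.0432; 2 of 6 called; 303 to 374 CPM and 295 to 374 CPM). In these permutation tests, oligodendrocyte (0.15, p = 0.102), medium spiny neuron (-0.15, p = 0.109), endothelial and pericyte (0.14, p = 0.0528), astrocyte, meningeal and choroid plexus scores did not pass p = 0.05. These p values were not adjusted over the 10 scores. Counts of single markers called for the line effect, above and below, stand beside 14.5% of all genes called. Of the markers in the scores that did not pass, 3 of 6 astrocyte genes were called (Aldh1l1 and Gja1 higher, Slc1a2 lower), as were 2 of 9 oligodendrocyte genes (Mobp and Mbp, both higher) and 1 of 7 endothelial and pericyte genes (Rgs5, higher by 0.63 on the log2 scale).

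With the cortical and oligodendrocyte scores in the model, 0 of the 36 genes and 399 of all genes (2.7%) were called for the line effect. All 10 genes kept their sign, from -0.05 (Sema6b) to 0.55 (Sema5b). The difference of Dpysl5 was 0.22 (adjusted p = 0.105), that of Sema3a 0.35 (adjusted p = 0.146) and that of Sema4g 0.08 (adjusted p = 0.815). Because Slc30a3 lies near Dpysl5, the cortical score was also computed without it, and Dpysl5 was then called at 0.22 (adjusted p = 0.0773). With the immature neuron score, Dpysl5 (0.24, adjusted p = 0.0505) and Sema3a (0.46, adjusted p = 0.0229) were called, and Plxnb2 was at 0.05 (adjusted p = 0.598), against 5.27% of all genes called. After family members were pooled into 1 sum of counts, Dpysl5 (0.27, adjusted p = 0.0477) and Sema5b (0.49, adjusted p = 0.0833) were called of the 10, against 4.12% of all genes. With family as a random block in limma, 7 of the 36 genes were called (12.7% of all genes), and Plxnb2 (adjusted p = 0.103), Sema3c (adjusted p = 0.133) and Sema4g (adjusted p = 0.128) were not.

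**Figure D4:**
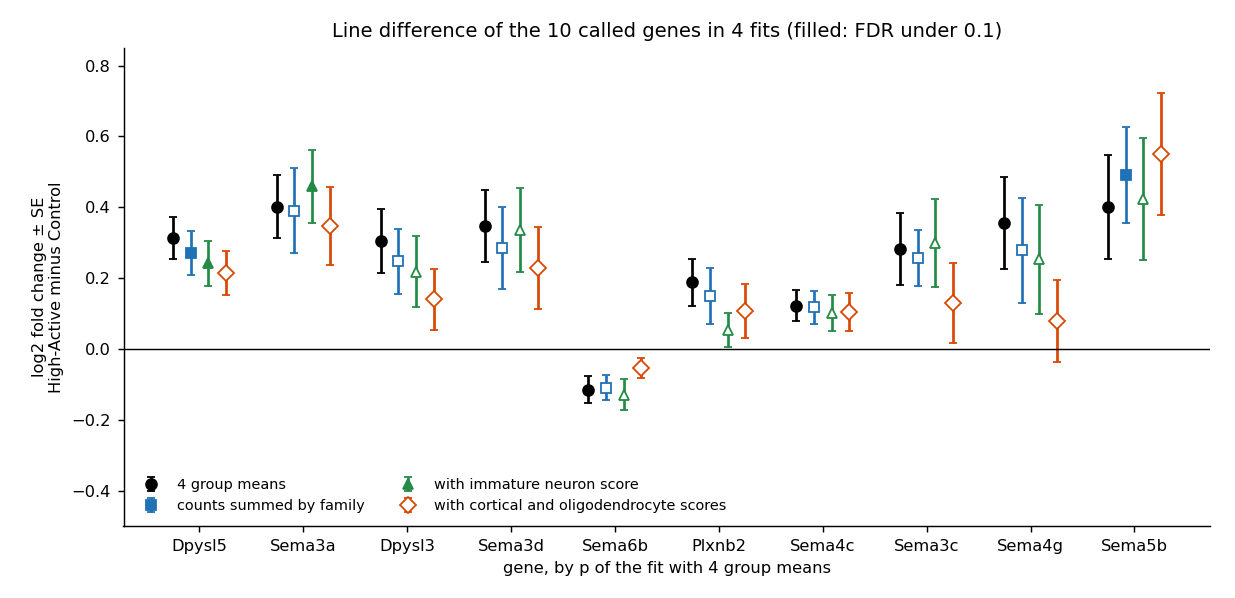
Log2 fold change between the lines ± SE of the 10 called genes in 4 fits; filled symbols passed FDR 0.1. Each gene keeps its sign in all 4 fits, Dpysl5 is called in 3 of them, and no gene is called with the cortical and oligodendrocyte scores in the model.

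Amphetamine, compared with saline over both lines, called 0 of the 36 genes, as it called 0 of all 14792 genes (0%) in edgeR's quasi-likelihood test. An unadjusted p under 0.05 was reached by 6 of the 36 genes, 4 higher and 2 lower, against 12.5% of all genes. DESeq2 also called 0 of the 36, against 391 of all genes (2.64%), and the likelihood-ratio test with robust dispersions called 1, Sema7a, against 458 of all genes (3.1%). Without High-Active amphetamine mouse 415, edgeR called 339 of all genes and 0 of the 36. Sema7a had 60.3, 65.0, 65.9, 68.6 and 76.3 CPM in High-Active saline mice and 68.0, 83.8, 98.5, 109 and 115 CPM in High-Active amphetamine mice. Control mice had 68.5, 75.5, 90.7, 90.8 and 132 CPM after saline and 87.5, 90.3, 92.5, 96.1 and 121 CPM after amphetamine. The High-Active groups overlapped through 1 amphetamine mouse, and the Control groups overlapped in most mice. The log2 difference over both lines was 0.29 ± 0.11 (unadjusted p = 0.0143, adjusted p = 0.278, edgeR). In the 13 mice of 6 families that had a full sibling given the other treatment, with family as a block, edgeR called 0 of the 36 genes and 1 of all genes (0.00684%), and Sema7a was higher by 0.38 ± 0.13 (unadjusted p = 0.0203, adjusted p = 0.983).

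Cortical excitatory neuron markers were higher after amphetamine by 0.80 in mean log2 CPM (permutation test, p = 0.0193, 10 against 10 mice), with summed levels of 227 to 1008 CPM after amphetamine and 166 to 863 CPM after saline. Mouse 415, the lowest in Sema7a of the High-Active amphetamine mice, had a cortical score of 3.27, against 4.21 to 5.32 in the other 4. With the cortical and oligodendrocyte scores in the model, the amphetamine difference of Sema7a was 0.04 (adjusted p = 0.973) and its line difference was 0.01 (adjusted p = 0.967). Why Sema7a differed, and whether it followed the cortical score over the mice, was not tested. Crmp1 was higher after amphetamine by 0.10 ± 0.04 (adjusted p = 0.342) and Plxnb2 was lower, at -0.16 ± 0.07 (adjusted p = 0.343); with both scores these were 0.05 and -0.10.

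Within the lines, amphetamine called 0 of the 36 genes in Control mice (0% of all genes; 2 genes at an unadjusted p under 0.05, Sema3a and Crmp1) and 0 in High-Active mice (0% of all genes; 3 genes, Sema7a, Plxnb2 and Sema4c). DESeq2 called none of the 36 in either line, against 0.0406% of all genes in Control and 0.886% in High-Active mice. The likelihood-ratio test called none of the 36 in Control mice (0.304% of all genes) and Sema7a in High-Active mice (1.89%). The line-by-amphetamine interaction called 0 of the 36 genes and 0% of all genes with edgeR and 0 of the 36 with DESeq2 (0% of all genes) and with the likelihood-ratio test (0.0406%). At an unadjusted p under 0.05 it held 0 of the 36, against 2.97% of all genes. The smallest p values were those of Sema7a (0.41 ± 0.22, unadjusted p = 0.0788) and Sema4f (0.16 ± 0.09, unadjusted p = 0.106). Among the 13 siblings with family as a block, these interactions were 0.09 ± 0.26 for Sema7a and 0.12 ± 0.13 for Sema4f, and 0 of the 36 genes were called for the interaction or in either line. Responses of these genes to amphetamine were therefore not shown to differ between the lines.

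**Figure D5:**
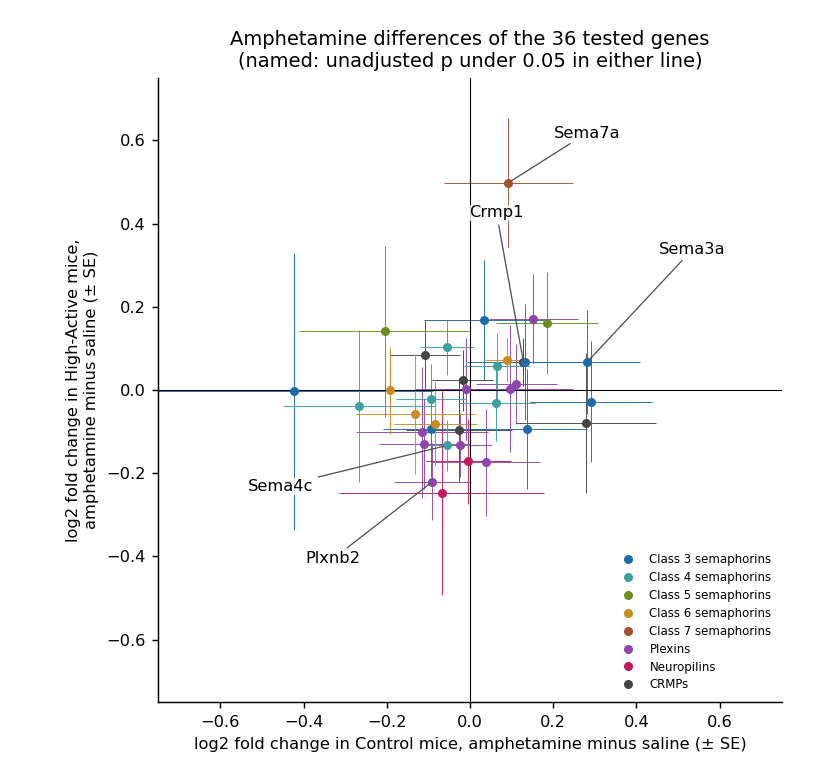
Log2 fold change after amphetamine in Control mice (horizontal) and High-Active mice (vertical), each ± SE, for the 36 genes. Sema7a stands apart at 0.50 in High-Active mice and 0.09 in Control mice, and no gene passed FDR 0.1 in either line.

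Of 43 other genes of semaphorin signaling, 7 were called for the line effect (16.3%), a share near the 14.5% of all genes. Of these 7, 4 were higher and 3 lower, and the median log2 fold change of the 43 was -0.00011. Among 14 co-receptors and other receptors, Chl1 (0.17 ± 0.06), an adhesion molecule that joins neuropilin 1, and Erbb2 (0.31 ± 0.10), a receptor kinase that B-type plexins can engage, were higher. Ptk7 (-0.24 ± 0.08), Trem2 (-0.48 ± 0.12) and Cd72 (-0.95 ± 0.29) were lower. Cd72 is a receptor of Sema4d on immune cells and was sparse, with 10 to 123 reads per mouse, while Trem2 is a receptor of microglia. Of 17 GTPases and their regulators, Rnd2 was called (0.19 ± 0.05), and of 12 cytoskeletal effectors, the kinase Fyn was called (0.09 ± 0.03). The adjusted p values of these 7 genes lay between 0.0238 and 0.0666. Amphetamine called 0 of the 43 with edgeR (0% of all genes), where 8 had an unadjusted p under 0.05 (12.5% of all genes). It called 3 with DESeq2 (2.64% of all genes) and 4 with the likelihood-ratio test (3.1%). With the cortical and oligodendrocyte scores in the model, 0 of the 43 were called for the line, against 2.7% of all genes.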

How the data were processed

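RNA from the whole striatum of 20 mice was sequenced as stranded 100 bp paired reads. The authors deposited raw read counts per gene, made, per the processing notes, with CASAVA 1.8.2, TopHat2 2.0.10, Bowtie2 2.1.0, SAMtools 0.1.19 and HTSeq 0.6.1 on GRCm38; the strand setting of counting is not given in the sources used here. Reads in no feature (8.17 to 9.55%), ambiguous reads (1.39 to 1.66%) and reads not aligned uniquely (5.7 to 7.01%) were left out of library sizes. A median of 41703853.5 reads per mouse was counted on genes.

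From these counts, CPM, log2 CPM (prior count 2) and CPM per kb of GENCODE M21 exon were computed. Genes over 1 CPM in at least 3 mice were fitted with edgeR 4.0.16 (R 4.3.3; TMM, quasi-likelihood test, 4 groups without covariates), with Benjamini-Hochberg adjustment over all 14792 genes and FDR under 0.1 as the threshold. SE is the log2 fold change divided by the square root of F. Permutation tests were two-sided with 100000 resamples. Scripts were tested on simulated data. Alternatives used RLE scaling, other filters, DESeq2 1.42.0, a likelihood-ratio test, limma 3.58.1 (voom, family block), marker scores as covariates, family sums and leaving out each mouse. The cortical score without Slc30a3, the cortical score alone and the pairing of siblings by family were added after seeing the data.

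Genes given with full statistics were those at FDR under 0.1 in the line, amphetamine or interaction contrast, those at an unadjusted p under 0.05 for the line, the 3 with the smallest p for amphetamine, the 2 for the interaction, Dpysl5, and called pathway partners. Others named were given as values or ranges. Members and lists were chosen with earlier results of these data known. Nothing but the labels defines groups; replicates are separate mice, of which 13 share both parents with another mouse of their line, so they are not fully independent.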

Additional observations from a re-analysis of the deposited data

Results flagged for a closer look

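In 3 of 76 groups of 5 mice, examined over 19 of the genes, the highest or lowest mouse lay far from the other 4; chance alone marks about 1 in 20 groups. Plxnc1, the receptor of Sema7a, was lowest in Control saline mouse 883 at 40.9 CPM, with the others at 60.02 to 69.2 CPM, a gap of 0.731 of the range against a critical value of 0.71. Sema3a was highest in High-Active saline mouse 483 at 33.0 CPM, with the others at 22.4 to 25.05 CPM (0.711 of the range). Sema6c was highest in Control saline mouse 477 at 19.8 CPM, with the others at 15.3 to 16.3 CPM (0.74 of the range). Without mouse 483 the line difference of Sema3a was 0.35 on the log2 scale and was still called. Sema6c, not called with all mice, was called for the line effect without mouse 477, and also without mouse 483. Plxnc1 was not called with any single mouse left out. Why these mice stood apart was not tested.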

How the results depend on the processing

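For the line effect, the 10 called genes (14.5% of all genes) became 12 with DESeq2 (19%) and 12 with the likelihood-ratio test (15.3%). DESeq2 kept the 10 and added Dpysl2 and Sema4f. The likelihood-ratio test lost Sema4c and added Dpysl2, Plxnb3 and Sema5a. The 10 became 7 with a family block in limma (12.7%) and 5 with no filter on low counts (7.25%). The count was 2 with the immature neuron score (5.27%) and 2 with family sums (4.12%). It was 1 with the cortical score alone (2.64%) or without Slc30a3 (plus oligodendrocytes, 3.31%), and 0 with cortical and oligodendrocyte scores (2.7%). With single mice left out it ran from 4 to 11, while the share of all genes ran from 9.36% to 17.2%. The count over all genes, 2149, became 780, 600, 390, 490 and 399 with the immature score, family sums, cortical score alone, score without Slc30a3, and both scores. In saline mice the count of 1 (3.74% of all genes) became 4 with DESeq2 (7.51%), 2 of them lower in High-Active mice. It became 5 with the likelihood-ratio test (7.38%), 1 of them lower. It was 0 under each of the 4 fits with marker scores (0.277 to 0.453% of all genes). With single mice left out it was 0 to 3 (1.27 to 4.68%), 0 being without mouse 411 (2.37%) or 883 (1.27%). In amphetamine mice the count of 1 (1.3% of all genes) became 3 with the likelihood-ratio test (3.42%). It stayed at 1 with single mice left out (0.535 to 1.35%). The likelihood-ratio test called 1 gene for amphetamine over both lines (3.1% of all genes) and 1 in High-Active mice (1.89%). Of the partners, the 7 called became 11 (DESeq2), 3 (immature score), 1 (family sums) and 0 with each cortical score. The shares of all genes in these fits are those given above for the line effect. With single mice left out the partners called were 3 to 10, 3 being without mouse 883 (9.48% of all genes). For amphetamine they were 3 (DESeq2, 2.64% of all genes), 4 (likelihood-ratio test, 3.1%) and 0 to 1 with single mice left out (0 to 2.3%). The 18 called neighbors became 10 (no filter), 7 (immature score), 9 (family sums) and 5 with the cortical score alone or without Slc30a3. They became 0 with both scores, 34 with the 1000 kb window and 9 to 26 with single mice left out. Neighbors were counted around the genes called in each fit, so these counts do not follow the same set. Only Dpysl5 was called in the fits giving 5, and only Dpysl5 and Sema3a with the immature score. With both scores 0 of the 36 were called, so the count of 0 neighbors was fixed in advance. The line difference of Sema7a turned from -0.24 to 0.0136 with both scores and 0.0023 with the cortical score alone. Beyond these settings' own construction, the cause was not tested. No paired analysis was possible by replicate number, because these follow accession order and pair no mice. Full siblings given different treatments were paired by family instead (13 mice, 6 families, 5 residual degrees of freedom, chosen after seeing the data). Only 4 of these 13 were Control mice. This fit changed no call of the 36 genes for amphetamine or the interaction. It called only 1 of all genes (0.00684%) for either effect, so unchanged calls say little. The Sema7a interaction was 0.09 in these 13 mice, beside 0.41 in all 20. Intervals cover spread between mice within 1 line of each kind.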
